A study of Mus musculus with 6 samples.

Results

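The genes described here encode secreted products of Paneth cells other than the alpha defensins. They were chosen by name, as the rows of the gene count table whose Ensembl identifiers map to Lyz1, Mptx1, Mptx2, Ang4, Mmp7, Itln1, Habp2 and Clps, and all 8 were among the 28564 genes of the table. RNA sequencing had been done on crypt cells of the small intestine from male mice aged 13 weeks, sorted as live, single, EpCAM-positive and CD44-positive cells without CD31 or CD45. There were 3 libraries from Apln-/- mice (Apln knockout), which lack apelin, and 3 from wild-type C57Bl/6 mice. The sources used here do not give the strain background of the knockout, the deleted part of Apln, or whether a library came from 1 animal or from several.

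Paneth cells sit at the base of small intestinal crypts, between the stem cells, and release granules of antimicrobial proteins into the crypt lumen. Lysozyme, encoded in Paneth cells by Lyz1, cleaves the peptidoglycan of bacterial cell walls, while angiogenin 4 (Ang4) is a ribonuclease with bactericidal activity and intelectin 1 (Itln1) is a lectin that binds glycans of microbial surfaces. Mmp7 encodes matrilysin, the protease that activates mouse pro-alpha-defensins. Mptx1 and Mptx2 encode mucosal pentraxins, relatives of C-reactive protein. Clps encodes colipase, a cofactor of pancreatic lipase, and Habp2 encodes a secreted serine protease that binds hyaluronan.

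Promoter sequences are shown for Lyz1 and Mptx2, the members whose knockout and wild-type libraries did not overlap, and for Mptx1, the close relative of Mptx2. Mptx1 had few counts, its groups overlapped, and its fold change was too uncertain to be told from that of Mptx2. Each window runs from 250 bases before to 50 after the annotated start, 5′ to 3′ on the strand of the gene (RefSeq, GRCm38.p6). Lyz1 lies at chr10:117292819-117293118 and Mptx2 at chr1:173277707-173278006, both on the minus strand, and Mptx1 at chr1:174330268-174330567 on the plus strand. Capitals mark matches on either strand to TATAAA (the TATA box), CTTTGA (the core of TCF/LEF sites), AACAAT (SOX factors) or TTTATG (CDX factors), and no matches in these windows overlap each other.
Lyz1: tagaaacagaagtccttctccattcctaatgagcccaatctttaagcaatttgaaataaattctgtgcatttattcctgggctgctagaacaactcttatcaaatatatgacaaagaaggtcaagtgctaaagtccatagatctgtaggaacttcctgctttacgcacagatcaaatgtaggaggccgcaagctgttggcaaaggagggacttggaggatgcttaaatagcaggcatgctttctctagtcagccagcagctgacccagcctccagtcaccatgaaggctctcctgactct
Mptx2: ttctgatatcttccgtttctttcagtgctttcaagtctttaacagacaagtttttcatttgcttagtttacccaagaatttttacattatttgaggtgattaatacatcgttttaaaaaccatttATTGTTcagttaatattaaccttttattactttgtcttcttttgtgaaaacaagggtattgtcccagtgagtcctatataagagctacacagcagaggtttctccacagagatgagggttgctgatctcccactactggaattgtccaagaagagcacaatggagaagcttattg
Mptx1: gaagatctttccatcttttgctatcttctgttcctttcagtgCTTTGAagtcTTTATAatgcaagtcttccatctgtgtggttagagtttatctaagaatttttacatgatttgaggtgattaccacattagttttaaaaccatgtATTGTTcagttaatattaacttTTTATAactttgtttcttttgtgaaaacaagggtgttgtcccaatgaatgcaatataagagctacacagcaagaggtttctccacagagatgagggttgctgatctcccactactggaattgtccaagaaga
The Mptx1 and Mptx2 windows were 76.7% identical over their aligned columns, and the Lyz1 window was 82.5% identical to that of Lyz2. The windows of both pentraxin genes held the SOX letters. That motif was in 5 of the 8 windows found for 7 members, against 10.6% of 32544 mouse promoter windows. The TCF/LEF letters were in 3 of the 8 (16% of all windows), the TATA letters in 2 (13.6%) and the CDX letters in 1 (11.9%). Both windows of Mmp7, which overlap, held TCF/LEF and SOX letters, so these are not independent. The SOX letters of Mptx1 and Mptx2 lay in the same stretch of their similar windows and are not independent either. Whether any of these shares differs from that of all windows was not tested. A match describes letters only, and the Lyz1 window held none of the motifs. In Mptx1 both TATA matches were on the opposite strand, at -198 and -82 from the start, so they do not mark a TATA box that Mptx2 lacks.

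The libraries held 23046880 to 26513481 counts, of which the 5 most abundant entries, led by the mitochondrial ribosomal RNAs, took 77.3% to 78.9% in knockout and 70.7% to 75.3% in wild type. Apln had 0 counts in each knockout library, against 29, 7 and 5 counts in wild-type libraries 1, 2 and 3. Set against a limit of 3 counts for the 3 knockout libraries together, Apln was at least 10.2-fold lower in the knockout, and at least 4.22-fold without wild-type library 1, which held most of the wild-type counts. The limit was 6.76-fold to 6.84-fold with any knockout library left out. Of the genes behind the sort, Epcam was at 310 ± 24.6 CPM in knockout and 294.5 ± 12.9 CPM in wild type and Cd44 at 62.2 ± 9.48 and 57.5 ± 5.61 CPM (knockout and wild type). Ptprc, which encodes CD45, was at 1.42 ± 0.335 CPM in knockout and 2.77 ± 0.567 CPM in wild type, lower in every knockout library (edgeR adjusted p = 0.264; SD, n = 3 each), and Pecam1, which encodes CD31, had 21 counts in the knockout and 46 in the wild-type libraries. Transcripts of Paneth cells were present in every library, since the 8 genes together took 0.369% to 0.906% of the knockout counts and 0.237% to 0.375% of the wild-type counts outside the 5 most abundant entries. As RNA was taken from a mixture of crypt cells, more Paneth cells and more RNA per Paneth cell cannot be told apart in any value below.

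In the Apln knockout, the lysozyme gene Lyz1 and the pentraxin gene Mptx2 were at more than double their wild-type mean level in CPM (read counts per library size, scaled between libraries by TMM), and their groups did not overlap. Itln1 had a fold change of 1.85 with overlapping groups. For Mmp7, Habp2, Clps, Ang4 and Mptx1 the groups overlapped and the 95% interval of the fold change included no difference; Mptx1 was the only member with a lower mean in the knockout. None of the 8 members passed edgeR's quasi-likelihood test at a Benjamini-Hochberg adjusted p under 0.05 (0 higher, 0 lower). Of all 15122 genes tested, 0.172% did (26), 0.112% higher (17) and 0.0595% lower (9); scaled instead with size factors from DESeq2 or by the upper quartile, the edgeR test called 0 higher and 1 lower. At an unadjusted p under 0.05, 3 of the 8 members were higher in the knockout and 0 lower, where 7.53% of all genes were higher. The DESeq2 Wald test and limma-voom each called 1 member higher, Mptx2, and none lower. DESeq2 called 2.96% of the 10137 genes that it gave an adjusted p higher and 2.77% lower, and limma-voom called 0.284% and 0.086% of all genes tested, in the same order. Groups that did not overlap, with the knockout higher, were seen for 2 of the 8 members and for 11.3% of all genes; with the knockout lower they were seen for 0 members and 9.56% of all genes. All 8 members passed the filter on low counts. The log2 fold change was positive for 7 of the 8 and for 49.5% of all genes, and negative for 1 member and 50.5% of all genes, and the median was 0.47 over the members and -0.01 over all genes tested. The median of the members was 0.25 without knockout library 1, 0.73 without knockout library 2, 0.18 without wild-type library 2 and 0.98 without wild-type library 3.

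**Figure D1:**
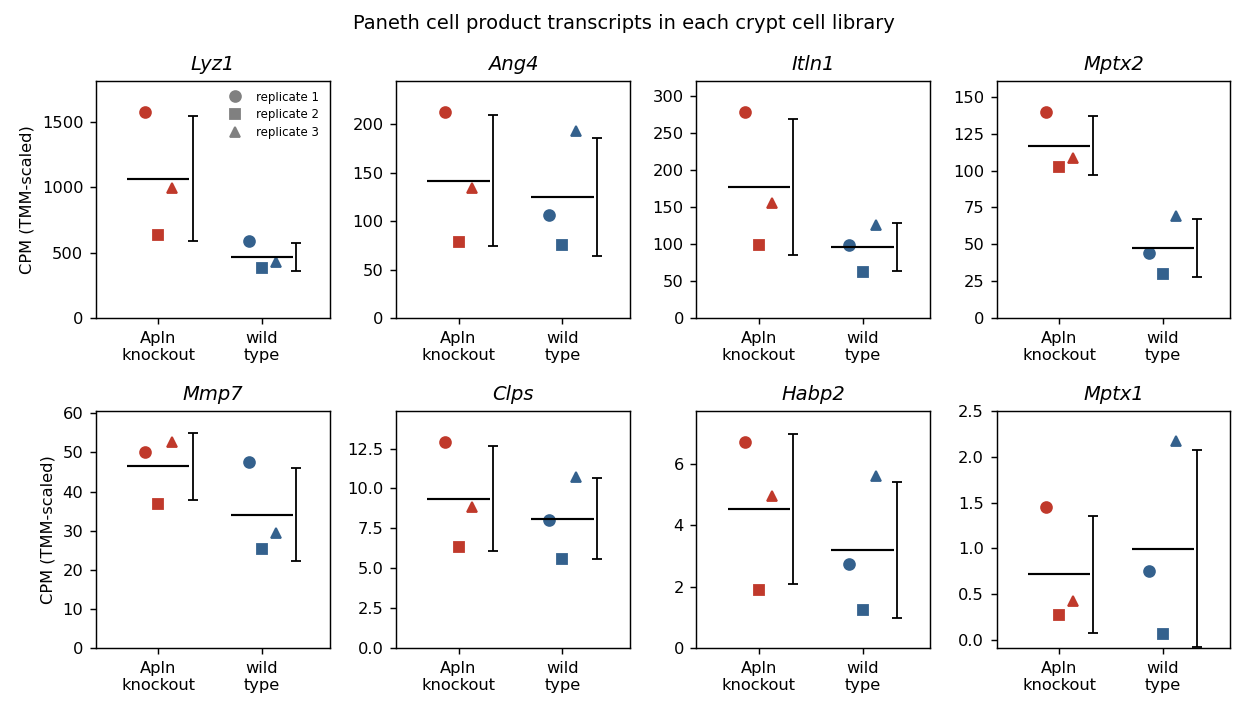
Level of each of the 8 genes in CPM (TMM-scaled, linear axis) in the 3 Apln knockout and 3 wild-type libraries. Symbols mark the replicate, the horizontal line is the mean and the bar beside it the SD; for Lyz1 and Mptx2 every knockout library lies above every wild-type library.

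Lyz1 (ENSMUSG00000069515, chromosome 10, 117287797 to 117292868, minus strand of mm10) was the most abundant member. It was at 1577, 633 and 994 CPM in knockout libraries 1, 2 and 3, against 588, 384 and 431 CPM in the wild-type libraries. Its lowest knockout library lay just above its highest wild-type library, and the knockout libraries were spread more widely (1068 ± 476 CPM in knockout, 468 ± 107 CPM in wild type; SD, n = 3 each). The log2 fold change was 1.19 ± 0.28 (SE), a 2.28-fold difference with a 95% interval of 0.58 to 1.80 on the log2 scale, short of the threshold (edgeR adjusted p = 0.0925). Leaving out the 5 most abundant entries, whose share differed between the groups, gave 1.18 for Lyz1 and 1.28 for Mptx2.

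Mptx2 (ENSMUSG00000079180, chromosome 1, 173274382 to 173277777, minus strand) had the lowest p of the members. Its level was 140, 103 and 108 CPM in the knockout libraries and 43.9, 29.8 and 69.0 CPM in the wild-type libraries. The groups were well apart, with a gap between the lowest knockout and the highest wild-type library that exceeded the SD of either group (117 ± 20.0 CPM in knockout, 47.5 ± 19.9 CPM in wild type; SD, n = 3 each). Its log2 fold change of 1.30 ± 0.26 (SE; 2.46-fold, 95% interval 0.74 to 1.85) was just short of the threshold (edgeR adjusted p = 0.0556). Without wild-type library 3 the edgeR adjusted p was 0.0141, and without knockout library 1 it gave 0.374.

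The relative Mptx1 (ENSMUSG00000026531, chromosome 1, 174330518 to 174332873, plus strand) had few reads. It had 31, 6 and 9 counts in the knockout libraries and 19, 2 and 69 counts in the wild-type libraries. Wild-type library 3 held most of the wild-type counts, and every knockout value lay within the wild-type range. Its log2 fold change was -0.48 ± 0.93 (SE; 95% interval -2.51 to 1.54), and it was 0.82 without wild-type library 3. The longest transcripts of the 2 pentraxin genes were 92.4% identical over 794 aligned bases, and 18% of the windows of 50 bases in Mptx2 also occurred in Mptx1. Reads from such stretches cannot be assigned to one of the genes, and since Mptx1 had at most 69 counts in a library, against 864 to 2979 for Mptx2, its counts are the less certain.

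Itln1 (ENSMUSG00000038209, chromosome 1, 171518122 to 171535294, minus strand) was at 279, 98.7 and 156 CPM in the knockout libraries, against 99.5, 61.8 and 126 CPM in the wild-type libraries. Knockout libraries 1 and 3 exceeded every wild-type library, while knockout library 2 lay within the wild-type range. The log2 fold change was 0.89 ± 0.33 (SE; 95% interval 0.18 to 1.60) and did not pass (edgeR, unadjusted p = 0.0185, adjusted p = 0.231). Without knockout library 1 the log2 fold change was 0.41.

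Ang4 (ENSMUSG00000060615, chromosome 14, 51763878 to 51773590, minus strand) had 213, 78.1 and 134 CPM in the knockout libraries and 107, 75.6 and 193 CPM in the wild-type libraries. The second highest of all 6 values belonged to wild-type library 3, so the ranges coincided almost entirely (142 ± 67.5 CPM in knockout, 125 ± 60.8 CPM in wild type; SD, n = 3 each). The log2 fold change was 0.18 ± 0.35 (SE; 95% interval -0.58 to 0.94; edgeR adjusted p = 0.858), and its sign turned when either knockout library 1 (-0.23) or wild-type library 2 (-0.09) was left out.

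Mmp7 (ENSMUSG00000018623, chromosome 9, 7692090 to 7699585, plus strand), the protease gene, was at 50.1, 36.7 and 52.6 CPM in the knockout libraries and 47.6, 25.3 and 29.6 CPM in the wild-type libraries. Wild-type library 1 lay among the knockout libraries. Its log2 fold change of 0.45 ± 0.23 (SE; 95% interval -0.05 to 0.94) was short of the threshold (edgeR adjusted p = 0.383). Exons of Mmp7 overlap those of the antisense gene AV064505, and 7.36% of its windows of 50 bases occurred there, so reads of the pair cannot be told apart if counting ignored strand.

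Clps (ENSMUSG00000024225, chromosome 17, 28558149 to 28560766, minus strand) and Habp2 (ENSMUSG00000025075, chromosome 19, 56287137 to 56320822, plus strand) were low. Clps averaged 9.37 ± 3.30 CPM in knockout and 8.12 ± 2.56 CPM in wild type, and Habp2 averaged 4.52 ± 2.44 CPM in knockout and 3.20 ± 2.22 CPM in wild type (SD, n = 3 each). For both genes knockout library 1 was the highest of the 6 and wild-type library 3 came next. The log2 fold changes were 0.21 ± 0.30 for Clps (95% interval -0.44 to 0.85) and 0.49 ± 0.52 for Habp2 (95% interval -0.64 to 1.63; SE), neither near the threshold (edgeR adjusted p = 0.795 and 0.708). The sign of Clps turned when either knockout library 1 (-0.09) or wild-type library 2 (-0.01) was left out, and for Habp2 the log2 fold change was 0.10 without either of these libraries. Exons of Habp2 overlap those of Nrap on the opposite strand.

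**Figure D2:**
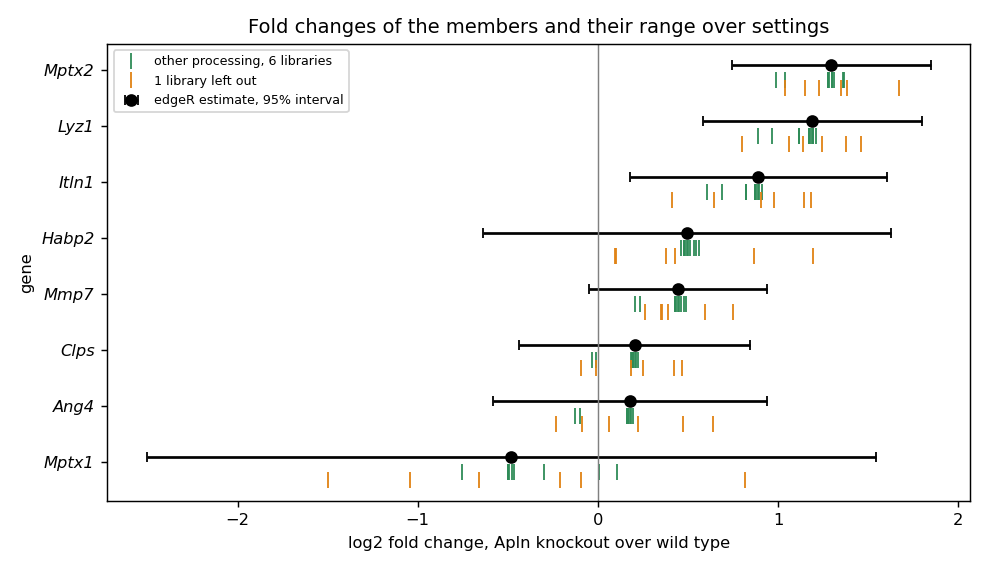
Log2 fold change of each gene, Apln knockout over wild type, with the 95% interval of edgeR's quasi-likelihood fit (black), under other processing with all 6 libraries (green) and with 1 library left out (orange). Mptx2, Lyz1, Itln1, Mmp7 and Habp2 stayed above 0 under every setting tried, and Clps, Ang4 and Mptx1 crossed 0.

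Transcript length moved with these differences. Ranked by the length of the longest transcript, the lowest eighth of all genes tested (median 668 nucleotides) had a median log2 fold change of 0.26, and the top eighth (median 7409 nucleotides) had -0.19. The longest annotated transcripts of 7 members were 611 to 1263 nucleotides, and that of Habp2 was 2815. With trends in length and GC content taken out of each library, the log2 fold change was 0.99 for Mptx2, 0.96 for Lyz1 and 0.69 for Itln1, and the edgeR adjusted p was 0.154, 0.202 and 0.422 in that order. With the same correction Mmp7 was at 0.21, Clps at -0.01 and Ang4 at -0.10, the last pair with a turned sign.

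Compared per kilobase of the longest transcript, Lyz1 stood above all other members in both groups, with 846 ± 377 CPM per kilobase in knockout and 370 ± 84.8 in wild type. Next came Ang4 (200 ± 95.3 in knockout, 176 ± 85.8 in wild type), Itln1 (156 ± 80.5 and 84.0 ± 28.5, knockout and wild type) and Mptx2 (147 ± 25.2 and 59.9 ± 25.0, in the same order). Within each group the ranges of Ang4 and Itln1 overlapped, as did those of Itln1 and Mptx2. Compared in the same library, Ang4 was above Itln1 in all 6, and Itln1 was above Mptx2 in all but knockout library 2. Mmp7 (34.4 to 49.2 CPM per kilobase in knockout, 23.7 to 44.5 in wild type) was below Mptx2 in each of the 6 libraries, although their wild-type ranges overlapped. Clps followed at 15.3 ± 5.40 CPM per kilobase in knockout and 13.3 ± 4.18 in wild type (SD, n = 3 each). Habp2 and Mptx1 were the lowest, at 0.440 to 2.38 and 0.0862 to 2.72 CPM per kilobase over the 6 libraries. Their ranges overlapped, with Habp2 above Mptx1 in every library but wild-type library 3.

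The members varied together between libraries. Knockout library 1 was the highest of the 6 libraries for 6 of the 8 members, and wild-type library 2 was the lowest for all 8. Knockout library 2 lay within the wild-type range for every member but Lyz1 and Mptx2. Wild-type library 3 was among the highest pair of libraries for Ang4, Clps, Habp2 and Mptx1. Over the 6 libraries, Pearson's r of log2 CPM was positive for all 28 pairs of members, from 0.344 to 0.984 with a median of 0.699. With the group means removed it was 0.253 to 0.988 with a median of 0.863, so the members also varied together within a genotype; each library's cell mixture and scaling are shared by all members, and these r are descriptive. Ang4 and Clps were the most alike pair (r = 0.984).

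**Figure D3:**
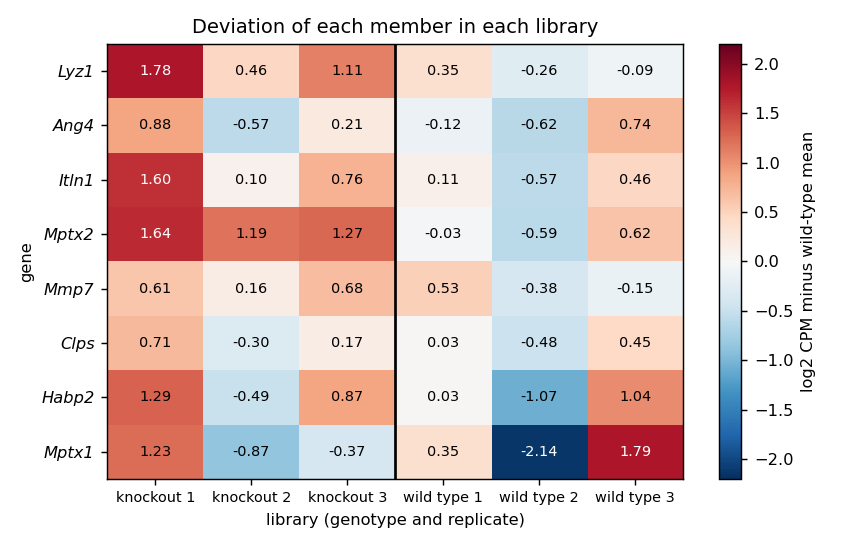
Log2 CPM of each gene in each library minus its wild-type mean, with knockout libraries left of the line and wild-type libraries right of it. Knockout library 1 is positive for all 8 genes and wild-type library 2 negative for all 8, while knockout library 2 is negative for Ang4, Clps, Habp2 and Mptx1.

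Summed over the 8 genes, the level was 2279, 957 and 1460 CPM in the knockout libraries and 897, 583 and 868 CPM in the wild-type libraries, and Lyz1 made up 66.1% to 69.2% of it in knockout and 49.7% to 65.8% in wild type. Relative to Lyz1 in the same library, Ang4 had 13.5, 12.3 and 13.5 counts per 100 Lyz1 counts in the knockout libraries, against 18.1, 19.7 and 44.8 in the wild-type libraries. Every knockout library was below every wild-type library for this ratio and for those of Mmp7 and Clps, 3 of the 7 other members. The denominator was itself higher in the knockout, and 42.6% of all other genes tested were lower relative to Lyz1 without overlap, so the members' share is near that of all genes. The ratios of Mptx2 to Lyz1 overlapped, at 8.86, 16.2 and 10.9 per 100 in knockout and 7.46, 7.76 and 16.0 in wild type.

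The near-identical copies that were in the count table took few reads. Lyz2, the lysozyme gene of macrophages, had 9 to 15 counts in knockout and 2 to 31 in wild type, at most 0.209% of the counts of both lysozyme genes, although the longest transcripts of Lyz1 and Lyz2 were 96.0% identical. Lyz1 shared 16.1% of its windows of 50 bases with Lyz2, and reads from such stretches cannot be assigned to one of the genes. The ubiquitous angiogenin gene Ang was at 9.64 ± 1.23 CPM in knockout and 9.38 ± 1.16 CPM in wild type (SD, n = 3 each) and overlaps Rnase4. Ang6 had 1 count in all libraries together. The other 4 listed copies, Ang2, Ang3, Ang5 and Itlnb, had no row in the count table under these symbols, so their reads are not known. Of the windows of 50 bases in Ang4, 4.7% also occurred in Ang2 or Ang5. The longest transcripts of Ang4 and Ang were 86.6% identical.

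Other genes that Paneth cells use did not share one direction with the 8 products (0 genes of these lists passed the edgeR test; DESeq2 called 5 and limma-voom 0). The alpha defensins, near-identical copies of one another whose separate counts are uncertain, had positive log2 fold changes for all 15 tested (median 0.90), 10 of them at an unadjusted p under 0.05, where 7.53% of all genes were higher at that p. The median of the list was 0.47 without knockout library 1, 0.56 without wild-type library 2 and 0.66 with the length and GC offsets. Lowest in p were Defa30, Defa3, AY761184, Defa17 and Defa29. Defa30 was at 187 ± 79.6 CPM in knockout and 96.3 ± 48.5 CPM in wild type and AY761184 at 423 ± 222 and 238 ± 38.7 CPM (knockout and wild type; SD, n = 3 each). The summed level of the list overlapped between the groups, at 950.0 to 2384 CPM in knockout and 677 to 1157 CPM in wild type. Across libraries it had an r of 0.998 with Itln1.

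Transcription factors of the secretory lineage lay mostly on the other side. Of 14 tested, 12 had a negative log2 fold change (median -0.51), with 6 lower and 0 higher at an unadjusted p under 0.05, where 7.66% of all genes were lower. Atoh1, the factor that commits crypt cells to secretory fates, was at 5.34 ± 0.602 CPM in knockout and 9.42 ± 2.24 CPM in wild type. Spdef, a factor of goblet and Paneth cell maturation, was at 3.83 ± 1.45 and 6.80 ± 0.780 CPM (knockout and wild type), Creb3l1 at 26.2 ± 6.47 and 43.3 ± 7.89 CPM, and Bhlha15 at 3.12 ± 0.948 and 5.36 ± 1.66 CPM (SD, n = 3 each). Insm1, a factor of enteroendocrine cells, was at 1.85 ± 0.761 CPM in knockout and 5.70 ± 4.87 CPM in wild type. Sox9 hardly differed, at 52.2 ± 10.1 CPM in knockout and 53.0 ± 7.20 CPM in wild type (SD, n = 3 each). The positive log2 fold changes of the list were 0.03 for Hnf4g and 0.23 for Foxa3. The lowest edgeR adjusted p of the list was 0.132. The summed level of the 15 factors was 195 to 237 CPM in knockout and 266 to 283 CPM in wild type, without overlap. The DESeq2 Wald test called 3 of these genes, Creb3l1, Insm1 and Atoh1, all lower, where it called 2.77% of the genes with an adjusted p lower.

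Of 11 tested genes for niche signals and receptors, 8 had a negative log2 fold change (median -0.13). At an unadjusted p under 0.05, 3 were lower and 0 higher, where 7.66% of all genes were lower and 7.53% higher. With the length and GC offsets the median was 0.04. Summed over the 15 genes of the list, the level was 203 to 210 CPM in knockout and 235 to 250 CPM in wild type, also without overlap. Kit, the stem cell factor receptor gene, was at 15.4 ± 3.56 CPM in knockout and 27.4 ± 4.81 CPM in wild type (edgeR adjusted p = 0.0989). The DESeq2 Wald test called Kit lower (adjusted p = 0.00731), where it called 2.77% of the genes with an adjusted p lower. The Notch ligand gene Dll1 was at 5.90 ± 0.637 and 9.33 ± 1.76 CPM, and the ephrin receptor gene Ephb2, which positions crypt cells, at 30.1 ± 0.977 and 39.1 ± 3.04 CPM (knockout and wild type). The Notch ligand gene Dll4 was at 3.76 ± 0.591 CPM in knockout and 4.07 ± 0.934 CPM in wild type. Other ligand genes had positive log2 fold changes, Wnt3 at 2.08 ± 0.579 CPM in knockout and 1.05 ± 0.262 CPM in wild type and Egf at 1.10 ± 0.434 and 0.519 ± 0.386 CPM (SD, n = 3 each). Wnt3 and Egf did not pass the edgeR test (adjusted p = 0.334 and 0.484).

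Over 15 tested genes of granule formation and autophagy the median log2 fold change was -0.09. At an unadjusted p under 0.05, 3 of them were lower and 1 higher, where 7.66% of all genes were lower and 7.53% higher. Ern2, an epithelial sensor of endoplasmic reticulum stress, was at 9.31 ± 1.02 CPM in knockout and 21.5 ± 7.11 CPM in wild type (edgeR adjusted p = 0.0575). Of all genes with an adjusted p, the DESeq2 Wald test called 2.77% lower, and of this list 1, Ern2 (adjusted p = 0.000355). The related Ern1 was at 9.27 ± 0.126 and 14.4 ± 5.21 CPM (knockout and wild type). Rab3d, a GTPase of secretory granules, was at 12.8 ± 3.78 and 19.0 ± 2.92 CPM, the autophagy gene Atg5 at 7.51 ± 0.851 and 5.06 ± 0.875 CPM, and Ripk2 at 2.13 ± 0.486 and 3.39 ± 0.916 CPM (knockout and wild type; SD, n = 3 each).

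**Figure D4:**
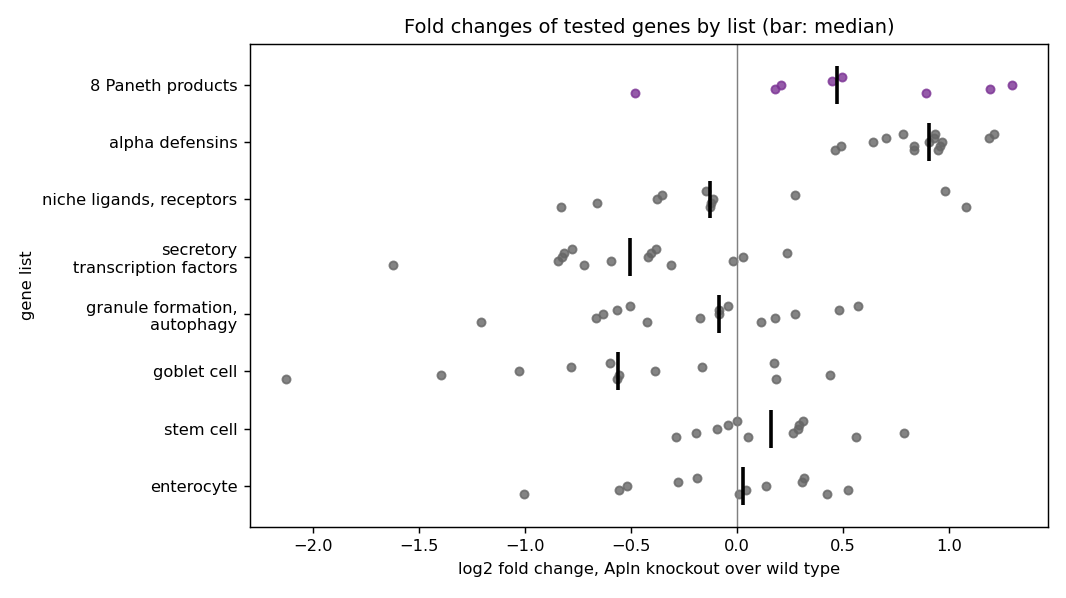
Log2 fold change of every tested gene, Apln knockout over wild type, for the 8 Paneth products and for the other gene lists, with the median as a bar. Medians are 0.47 for the products, 0.90 for the alpha defensins, -0.51 for the secretory transcription factors and -0.56 for goblet cell genes.

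Goblet cell genes moved with 1 library. Their summed level was 1924 to 2114 CPM in knockout and 1330 to 4629 CPM in wild type, with the highest value in wild-type library 3, which also stood high for Ang4, Clps, Habp2 and Mptx1. The median log2 fold change of the 12 goblet genes was -0.56, and 0.04 without that library; Muc2, the main secreted mucin gene, was at 512 ± 85.8 CPM in knockout and 1044 ± 746 CPM in wild type, and Capn9, Atp2c2 and Clca1 also had negative log2 fold changes. In all 9 of the 12 were negative and 3 positive (Tff3, Zg16 and Spink4), and Zg16 was called higher without wild-type library 3. Mptx1 had an r of 0.809 with the goblet sum over the 6 libraries, Ang4 0.643, Habp2 0.633 and Clps 0.583. For Itln1 it was 0.291, for Mptx2 0.244, for Mmp7 -0.050 and for Lyz1 -0.134. With the group means removed Mptx2 had the highest r (0.918), followed by Mptx1 (0.828), Habp2 (0.761), Ang4 (0.699) and Clps (0.668). Itln1 was then at 0.548, Mmp7 at 0.102 and Lyz1 at 0.063. The part of goblet cells in these values was not tested.

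Over 12 tested stem cell genes the median log2 fold change was 0.16 (-0.09 without wild-type library 3), with 0 at an unadjusted p under 0.05; Ascl2, Znrf3, Smoc2 and Slc12a2 had the lowest p. Enterocyte genes had a median of 0.03 over 12 tested, with 2 higher and 2 lower at that p, where 7.53% of all genes were higher and 7.66% lower. Fabp1 was at 2.83 ± 0.700 CPM in knockout and 5.69 ± 2.16 CPM in wild type (SD, n = 3 each), and Anpep and Apoa1 were also among the lowest in p.

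Markers of cells outside the epithelium were mostly low, except the immunoglobulin gene Igkc, at 64.2 ± 48.2 CPM in knockout and 87.4 ± 71.6 CPM in wild type (SD, n = 3 each). Defining genes of the exocrine pancreas, where colipase is also made, were at or near 0: Pnlip, Cpa1, Cel and Ctrb1 had 0 to 3 counts in any library, while Cela1 was at 2.71 ± 0.597 CPM in knockout and 1.38 ± 0.307 CPM in wild type (SD, n = 3 each) and Sycn and Ctrl were also tested. The 10 pancreatic genes in the table summed to 4.02 to 6.94 CPM in knockout and 3.25 to 4.34 CPM in wild type. Myeloid genes (13 in the table) summed to 30.4 to 31.2 CPM in knockout and 30.4 to 46.2 CPM in wild type, with Adgre1 at 1 count in all and Ptprc, Cd14, Itgam and Lcp1 at the lowest p. Lymphocyte genes, mostly Igkc, summed to 42.3 to 145 CPM in knockout and 8.26 to 155 CPM in wild type; Gzmb, Cd79a, Gzma and Jchain had the lowest p. Liver genes summed to 5.03 to 6.99 and 3.20 to 4.98 CPM (knockout and wild type), mostly from Ttr and Apoh, with Alb at 2 counts in all. Genes of mesenchyme and endothelium summed to 11.3 to 25.0 and 2.84 to 34.9 CPM (knockout and wild type), and Acta2, at 3.09 ± 3.20 and 0.385 ± 0.473 CPM, had their lowest p, followed by Vwf, Lum and Col1a1. The lowest edgeR adjusted p of these lists was 0.176.

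Among 4719 other genes with a mean of at least 10 CPM, Defa17 (r = 0.992), Ttll10 (0.991), Eif4a2 (0.990), Defa24 (0.990) and Hnrnpa1 (0.981) had the profile over the 6 libraries most like the mean standardised log2 CPM of the members. Defa17 was at 40.9 ± 18.8 CPM in knockout and 21.5 ± 9.57 CPM in wild type and Defa24 at 165 ± 68.5 and 96.0 ± 39.4 CPM (knockout and wild type). The others differed less, with Eif4a2 at 70.9 ± 9.30 and 62.5 ± 7.51 CPM, Hnrnpa1 at 49.8 ± 4.82 and 42.9 ± 6.12 CPM and Ttll10 at 18.2 ± 2.87 and 15.5 ± 2.45 CPM (knockout and wild type; SD, n = 3 each). With so many genes and 6 libraries, these r are descriptive.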

How the data were processed

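The authors deposited raw read counts per gene, whole numbers with no normalization, in 6 columns, 1 for each library; 0 columns were without a sample. The submitters' processing notes list STAR 2.6.1, HTSeq and the build mm10. Neither the annotation release nor the strand setting of the counting is named: not given in the sources used here. Per the labels' protocols, RNA was amplified with a whole-transcriptome kit before tagmentation. Without molecular identifiers, floors cover counting error only.

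Symbols, coordinates and transcript lengths came from GENCODE M21 (GRCm38, the same assembly), which named 28543 of 28564 identifiers, and promoters from RefSeq, which held 7 of the 8 members. In R 4.3.3, edgeR 4.0.16 kept 15122 genes with filterByExpr (minimum count 10, total 15), scaled by TMM and compared Apln knockout with wild type by glmQLFTest without covariates; SE is the fold change over the root of F. Log2 CPM used a prior count of 2. P-values were adjusted by Benjamini-Hochberg over all genes tested, at 0.05. They measure the spread between libraries that the labels call biological replicates. Replicate numbers are those of the sample titles; the count columns number the knockout libraries 1, 3 and 4. Libraries of the same group differed by more than sampling noise (chi-square over degrees of freedom 7.60 to 54.8).

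The members and gene lists were chosen with earlier results of these data known. Named are all members, their copies, the 5 genes of lowest p of each Paneth list, up to 4 of each other list, and the 5 genes with the most similar profile. Genes named outside this rule (Epcam, Cd44, Pnlip, Cpa1, Cel, Ctrb1, Adgre1, Igkc, Alb, Pecam1, Dll4, Sox9, Hnf4g, Foxa3, Tff3, Zg16 and Spink4) define a cell type, fill its sum or show a list's other direction or small differences. They were chosen after their values were seen. Some genes that the rule takes are not reported here. Of 206 list entries 175 were in the table. The limits on Apln without a library were added after seeing the data. Alternatives used DESeq2 1.42.0 and limma 3.58.1, and the fits were tested on simulated data.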

Additional observations from a re-analysis of the deposited data

How the results depend on the processing

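Of the single values, Mptx2, Lyz1, Itln1, Mmp7 and Habp2 kept a positive sign under all 16 alternatives (0.99 to 1.67 for Mptx2, 0.80 to 1.46 for Lyz1), and no alternative called a member lower. The number of genes called was 1 with DESeq2 size factors, upper-quartile scaling, no abundant entries, or length and GC offsets, against 581 with DESeq2, 56 with limma-voom, 629 without a filter, 117 with a filter at 1 CPM and 0 to 358 with 1 library left out (358 without wild-type library 3). Members called were 1 with DESeq2, limma-voom or the 1 CPM filter (Mptx2 each time), 3 without a filter (also Lyz1 and Itln1) and 0 to 1 with 1 library left out; other listed genes called were 5, 0, 1, 16 and 0 to 1 under the same settings. Whether the replicate numbers pair the libraries is not known. By the titles, correlations of same-numbered deviations were 0.0109 to 0.0569, and those of differently numbered libraries -0.0518 to 0.0169. The columns number the knockouts 1, 3 and 4. With the replicate block 173 genes, 2 members (Lyz1 and Mptx2) and 4 other listed genes were called. With block and length and GC offsets the numbers were 27, 0 and 0. The median of the members was 0.18 to 0.98 with 1 library left out. Signs turned for Mptx1 with limma-voom (0.11), the replicate block (0.0058) and without wild-type library 3 (0.82). They turned for Ang4 and Clps with the offsets (-0.10 and -0.0097), with block and offsets (-0.13 and -0.033), without knockout library 1 (-0.23 and -0.093) and without wild-type library 2 (-0.09 and -0.01). With 1 library left out Mptx1 ran from -1.50 to 0.82, Ang4 from -0.23 to 0.64 and Clps from -0.093 to 0.46. The cause was not tested. Mptx1 could not be tested with the 1 CPM filter. A fit with 1 library left out assumes like spread in both groups.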
